A study of Homo sapiens with 13 samples.

Results

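The genes LMO3, TMC8, MAGEC1, CPA3, A2M and OLMALINC had more RNA in HEL cells carrying the P95H form of the splicing factor SRSF2 than in cells carrying the wild-type form (WT), and are described here across every RNA-seq library of the series. They are 6 of the 58581 annotated genes in the count table and of the 22007 that passed a filter on low counts, which all 6 passed. They were chosen by their RNA-seq counts, as genes higher in P95H than in WT at both replicate numbers, so that difference is given as a description and without a test. HEL is an established human erythroleukemia line. The groups with RNA-seq were P95H cells after 48 hours in 1 µg/ml doxycycline (2 libraries), WT cells treated likewise (2 libraries), and P95H cells labelled uninduced (1 library). All cells were HEL, stably carried an SRSF2 construct and grew in RPMI with 10% serum; the labels do not say whether a line was 1 clone, and they call the numbered libraries biological replicates without saying how cultures were kept apart. The p-values below therefore measure the spread between these libraries. RNA binding was measured by HITS-CLIP, in which RNA crosslinked to Flag-tagged SRSF2 is pulled down and sequenced, in 4 P95H and 4 WT samples after 36 hours of doxycycline.

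SRSF2 is an SR protein that binds short motifs in exons and promotes their inclusion, and the proline 95 change, found in myelodysplasia and related leukemias, is known to shift which motifs it prefers. The 6 genes have different known roles. LMO3 encodes a LIM-only transcription cofactor related to LMO2, which bridges GATA and TAL1 factors in blood cells through LDB1. TMC8 (EVER2) encodes a transmembrane protein of the endoplasmic reticulum that works with TMC6 and CIB1 in resistance to skin papillomaviruses. MAGEC1 is a cancer-testis antigen gene of the X chromosome, normally silent outside the germ line. CPA3 encodes the carboxypeptidase stored in mast cell granules, A2M encodes alpha-2-macroglobulin, a secreted inhibitor that traps proteases, and OLMALINC is a long noncoding RNA next to the fatty acid desaturase gene SCD.

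The RNA-seq libraries held 37414093 to 45005605 counts, at which 3 counts correspond to 0.0667 to 0.0802 CPM (counts scaled to library size by TMM). The libraries also differed by replicate number. Mitochondrially encoded protein genes took 4.31% and 4.50% of counts in replicate 2 of P95H and WT, 1.38% in each replicate 1 library, and 4.14% in the uninduced library. Of 16 tested erythroid markers, 15 rose and 1 fell in replicate 2 against replicate 1 (median log2 difference 0.92, against -0.01 over all genes). In that comparison edgeR called 10.3% of all genes higher and 8.87% lower. Not every marker of a list was present. Among megakaryocyte markers ITGA2B stood at 503.7 to 807.4 CPM over the 5 libraries while PF4 had 0 to 2 counts, and the erythroid marker AHSP had 0 to 1 counts. The myeloid genes ELANE and FCN1 and the epithelial genes EPCAM and KRT19 had 0 counts in all 5 libraries, but monocyte LYZ had 276 to 515 counts and epithelial KRT18 had 978 to 1493 and KRT8 198 to 335. The summed level of 18 erythroid markers was 1775 and 2357 CPM in P95H replicates 1 and 2, 1710 and 2657 CPM in WT replicates 1 and 2, and 2442 CPM in the uninduced library. That of 12 megakaryocyte markers was 2671 and 4611 CPM in P95H, 3356 and 6712 CPM in WT and 4364 CPM in the uninduced library, lower in P95H than in WT at both numbers. Much of this sum was 1 gene, THBS1, at 1141 and 2895 CPM in P95H and 1629 and 5038 CPM in WT. Of 11 tested markers of that list, 3 had a positive log2 difference between P95H and WT (ITGA2B, GP1BA and SELP) and the others a negative one. That of 12 monocyte and neutrophil markers was 18.0 and 13.1 CPM in P95H replicates 1 and 2, 18.4 and 11.6 CPM in WT replicates 1 and 2, and 15.6 CPM in the uninduced library. Summed levels ranged over all 5 libraries between 6.77 and 9.88 CPM for lymphoid markers and between 33.0 and 45.1 CPM for fibroblast and epithelial markers. The part of these markers in the results below was not tested. In bulk RNA, fewer cells of a kind and less RNA per cell cannot be told apart.

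LMO3 (ENSG00000048540, chromosome 12, 16548373 to 16610594, minus strand; positions are GRCh38 throughout) stood at 2.24 and 4.37 CPM in P95H replicates 1 and 2, at 1.32 and 1.29 CPM in WT replicates 1 and 2, and at 4.16 CPM in the uninduced library. All 3 libraries of the P95H line were thus above both WT libraries, and the WT libraries nearly coincided. TMC8 (ENSG00000167895, chromosome 17, 78130770 to 78142968, plus strand) stood at 3.53 and 2.10 CPM in P95H, at 2.07 and 0.694 CPM in WT and at 2.85 CPM in the uninduced library. P95H replicate 2 and WT replicate 1 were almost level, so the groups were separated by a narrow margin. MAGEC1 (ENSG00000155495, chromosome X, 141903894 to 141909388, plus strand) stood at 4.12 and 2.91 CPM in P95H, at 1.96 and 1.61 CPM in WT and at 3.28 CPM in the uninduced library, and the 3 libraries of the P95H line lay above both WT libraries.

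CPA3 (ENSG00000163751, chromosome 3, 148865256 to 148897196, plus strand) varied most among the 6. It stood at 12.4 and 1.35 CPM in P95H, at 7.17 and 0.496 CPM in WT and at 1.84 CPM in the uninduced library, so that WT replicate 1 was far above P95H replicate 2. A2M (ENSG00000175899, chromosome 12, 9067664 to 9116229, minus strand) stood at 7.62 and 3.65 CPM in P95H, at 3.95 and 2.11 CPM in WT and at 5.25 CPM in the uninduced library, and here too WT replicate 1 was above P95H replicate 2. OLMALINC (ENSG00000235823, a lincRNA, chromosome 10, 100373615 to 100383368, plus strand) stood at 9.91 and 6.87 CPM in P95H, at 8.73 and 2.23 CPM in WT and at 8.58 CPM in the uninduced library. The low value of WT replicate 2 set it apart, while the other 4 libraries lay close together. These are low levels, resting on 20 counts (CPA3 in WT replicate 2) to 487 counts (CPA3 in P95H replicate 1) per gene and library.

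**Figure D1:**
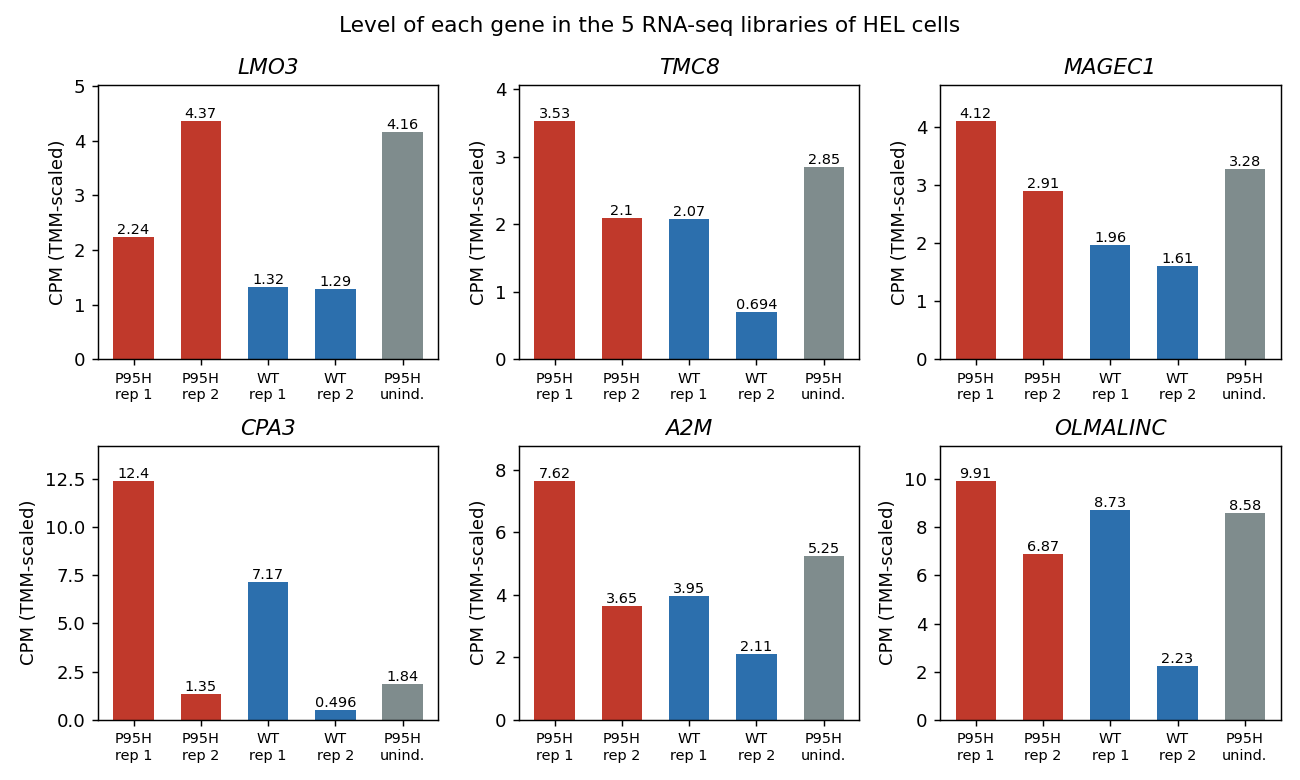
Bars give the level of each gene in CPM (TMM-scaled, linear axis from 0, each panel with its own range) in each of the 5 RNA-seq libraries: P95H in red, WT in blue, the uninduced P95H library in grey. CPA3 stands at 1.35 and 0.496 CPM in the replicate 2 libraries of P95H and WT and at 12.4 and 7.17 CPM in their replicate 1 libraries, and OLMALINC is low in WT replicate 2 (2.23 CPM).

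The stretch of 250 bases before the transcription start, where factors that set a gene's level often bind, is shown for the members listed by RefSeq (GRCh38.p14), since 4 of 6 were matched; TMC8 and A2M are named only. For LMO3, which has 5 listed starts, the outermost is given. It lies inside the span of the gene in the counted Ensembl annotation, whose start is farther upstream, so that this window is intragenic there. The CPA3 window also runs past the start of the counted gene (148865256), so that its last bases lie inside that gene. Capitals mark matches, on either strand, to GATAA (the core of a GATA factor site), CANNTG (the E-box of factors such as TAL1) or CCAAT (the CCAAT box); no 2 motifs overlap in these windows. The windows are chr12:16608215-16608464 (minus strand) for LMO3, chrX:141903644-141903893 (plus) for MAGEC1, chr3:148865046-148865295 (plus) for CPA3 and chr10:100373326-100373575 (plus) for OLMALINC.
LMO3: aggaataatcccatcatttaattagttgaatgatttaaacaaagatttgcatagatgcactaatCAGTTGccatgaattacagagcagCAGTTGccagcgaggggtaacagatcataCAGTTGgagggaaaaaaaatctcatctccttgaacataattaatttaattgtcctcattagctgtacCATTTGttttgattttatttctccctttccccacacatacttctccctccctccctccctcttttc
MAGEC1: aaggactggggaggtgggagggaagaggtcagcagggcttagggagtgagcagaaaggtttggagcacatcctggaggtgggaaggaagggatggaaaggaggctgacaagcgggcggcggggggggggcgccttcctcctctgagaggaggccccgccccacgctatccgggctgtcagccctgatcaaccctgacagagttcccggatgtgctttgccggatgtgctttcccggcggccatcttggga
CPA3: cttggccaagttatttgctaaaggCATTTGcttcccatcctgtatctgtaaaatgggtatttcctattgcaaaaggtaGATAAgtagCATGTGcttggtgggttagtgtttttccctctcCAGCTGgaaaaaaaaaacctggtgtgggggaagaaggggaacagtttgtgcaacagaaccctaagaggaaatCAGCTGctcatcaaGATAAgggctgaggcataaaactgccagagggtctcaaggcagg
OLMALINC: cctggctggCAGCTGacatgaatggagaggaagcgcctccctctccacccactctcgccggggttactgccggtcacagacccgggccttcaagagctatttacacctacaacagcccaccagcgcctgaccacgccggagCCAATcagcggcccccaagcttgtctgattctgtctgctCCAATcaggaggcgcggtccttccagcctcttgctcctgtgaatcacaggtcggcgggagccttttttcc
CPA3 has 2 matches to GATAA and 4 to CANNTG, LMO3 has 4 to CANNTG, and OLMALINC has 1 to CANNTG and 2 to CCAAT, while none of the letters searched are in the MAGEC1 window. Of 35097 RefSeq windows of the same length, 20.5% hold GATAA, 61.8% CANNTG and 32.0% CCAAT. These are matches of letters, and binding was not measured.

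P95H was set against WT to see which RNAs are more or less abundant with the mutant factor. Because this comparison chose the members, its values only describe them. LMO3 averaged 3.30 ± 1.51 CPM in P95H and 1.31 ± 0.02 CPM in WT, TMC8 2.81 ± 1.02 CPM in P95H and 1.38 ± 0.97 CPM in WT, and MAGEC1 3.51 ± 0.85 CPM in P95H and 1.79 ± 0.25 CPM in WT (SD, n = 2 each). CPA3 averaged 6.86 ± 7.79 CPM in P95H and 3.83 ± 4.72 CPM in WT, A2M 5.64 ± 2.81 CPM in P95H and 3.03 ± 1.30 CPM in WT, and OLMALINC 8.39 ± 2.15 CPM in P95H and 5.48 ± 4.6 CPM in WT (SD, n = 2 each). For CPA3 the SD exceeded the mean in both genotypes. Both P95H libraries were above both WT libraries for LMO3, TMC8 and MAGEC1, 3 of the 6, where 12.1% of 21922 genes show that order, and 26.9% are higher in P95H at both numbers. In the fit on genotype alone edgeR called 0% of 22007 genes higher and 0 in either direction. DESeq2 also called 0, and 227 genes (1.03%) had an edgeR p under 0.05 before adjustment. Log2 differences in that fit went from 1.35 (SE 0.38) for LMO3 to 0.62 (SE 0.58) for OLMALINC.

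The choice was made on a fit that added the replicate number as a term, where 0.186% of 22007 genes, 41 in number, were called higher in P95H; 8.45% had a p under 0.05 before adjustment, in either direction. Among those called whose log2 CPM averaged 1 or more, with a higher level at both numbers, the members were 6 of the 8 with the largest differences; the other 2 are the unnamed transcripts RP11-80I3.1 and RP11-574O16.1. Log2 differences in this fit were 1.29 (SE 0.25) for LMO3, 1.10 (SE 0.25) for TMC8, 0.97 (SE 0.22) for MAGEC1, 0.95 (SE 0.19) for CPA3, 0.89 (SE 0.18) for A2M and 0.80 (SE 0.19) for OLMALINC. OLMALINC was the smallest inside this limit, and EGR1, an immediate-early transcription factor gene, stood just outside it at 0.79 (SE 0.16). On the side of the p-value, OLMALINC had an edgeR adjusted p of 0.0486, and PZP, at a log2 difference of 0.96, was just outside at 0.0547. In the same fit 4 of 11 tested megakaryocyte markers and 1 of 16 erythroid markers were called lower in P95H, where 0.195% of all genes were, and their part in the members' values was not tested.

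Within each pair of same-numbered libraries the excess in P95H was uneven. The log2 difference between P95H and WT was 0.18 at replicate 1 and 1.60 at replicate 2 for OLMALINC, so nearly all of its difference came from the second pair. It was 0.74 and 1.72 for LMO3, 0.76 and 1.53 for TMC8, and 0.78 and 1.36 for CPA3, larger at replicate 2 in each. MAGEC1, at 1.05 and 0.83, and A2M, at 0.94 and 0.78, differed least between pairs. The ratio was larger in the second pair for 4 of 6 members, against 50% of 21922 genes. Whether the pairs differ was not tested, since a fit with that term leaves no residual degrees of freedom.

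**Figure D2:**
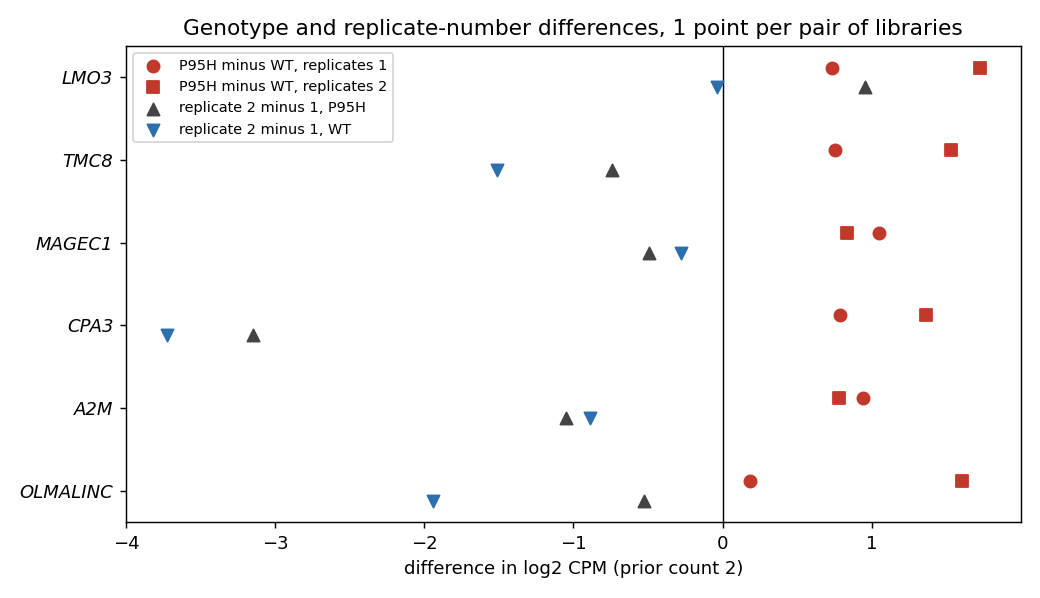
Each point is the difference in log2 CPM (prior count 2) between 2 libraries: P95H minus WT at replicate number 1 (red circles) and 2 (red squares), and replicate 2 minus replicate 1 in P95H (grey triangles) and WT (blue triangles). Red points lie right of 0 for every gene, as the choice of genes requires, while the replicate differences lie left of 0 except for LMO3 in P95H (0.95), and reach -3.73 for CPA3 in WT.

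The difference between replicate numbers was balanced over genotype, and its size was not used in choosing the genes. The choice did use the same fit on the same libraries, which favours genes with a small residual spread. The p-values below rest on that spread too, so they are not independent of the choice. CPA3, A2M, OLMALINC and TMC8 fell in replicate 2 against replicate 1, 4 of the 6 members, where 8.87% of 22007 genes were called lower and 10.3% higher by edgeR's quasi-likelihood test with genotype as a term (31.6% had a p under 0.05 before adjustment, in either direction). CPA3 fell by 3.43 on the log2 scale (SE 0.21, edgeR adjusted p 8.08e-16). This is larger than its difference of 0.95 between genotypes in the same fit, and in absolute size it lay at percentile 99.98 of all genes. OLMALINC fell by 1.16 (SE 0.19, edgeR adjusted p 2.38e-05), TMC8 by 1.08 (SE 0.25, edgeR adjusted p 0.00162) and A2M by 0.99 (SE 0.18, edgeR adjusted p 0.000114). For A2M, OLMALINC and CPA3 the mean difference between numbers was larger than that between genotypes, 3 of 6 members, as it was for 67.3% of 21922 genes.

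MAGEC1 stood at -0.41 (SE 0.22, edgeR adjusted p 0.202) and LMO3 at 0.55 (SE 0.25, edgeR adjusted p 0.114) in replicate 2 against replicate 1, neither past the threshold. In all, 5 of 6 members were lower in replicate 2 in both genotypes, against 36.2% of genes. LMO3 was the exception, with a log2 difference of 0.95 in P95H and -0.04 in WT. For OLMALINC the difference was -0.52 in P95H and -1.94 in WT, for TMC8 -0.74 and -1.51, for A2M -1.05 and -0.89, and for CPA3 -3.15 and -3.73. Without the genotype term TMC8 stood at -0.98 (edgeR adjusted p 0.109). A fit on 3 libraries has no room for that term. In it TMC8 stood at -0.55 without P95H replicate 1 and -0.41 without WT replicate 2, A2M at -0.45 and -0.65, and OLMALINC at -0.43 without WT replicate 2, none past edgeR's test; CPA3 stayed past it, between -4.28 and -2.84. LMO3 passed there at 1.11 without P95H replicate 1 and 1.31 without WT replicate 2, and MAGEC1 at -0.90 without P95H replicate 2 and -0.86 without WT replicate 1. DESeq2 called CPA3 and A2M, but not TMC8 (adjusted p 0.0745) or OLMALINC (adjusted p 0.285).

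**Figure D3:**
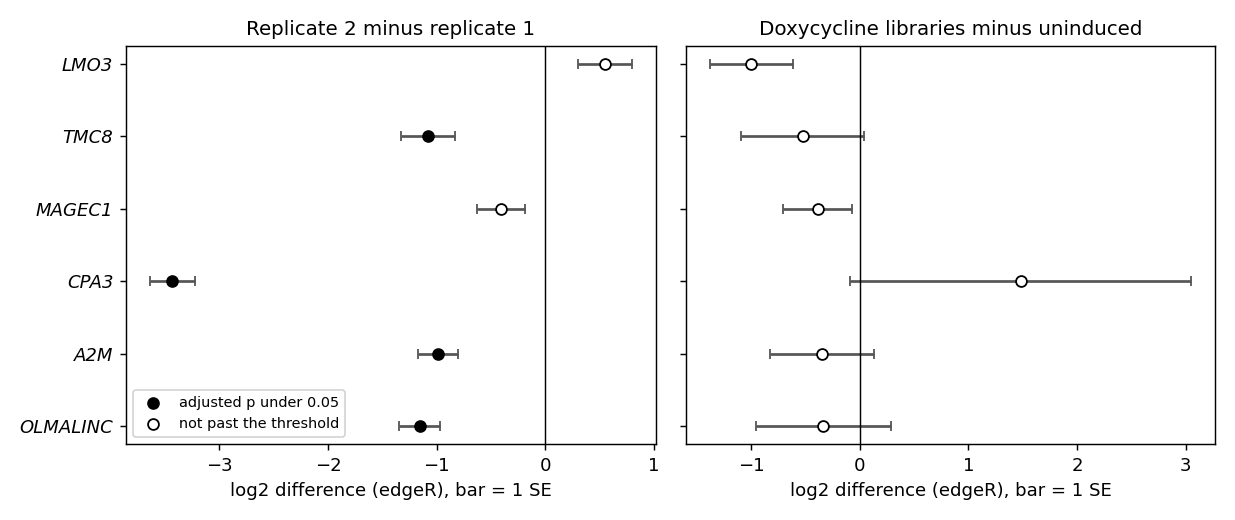
Points are log2 differences fitted by edgeR for each gene, with bars of 1 SE: replicate 2 minus replicate 1 over 4 libraries (left) and the 4 doxycycline libraries minus the 1 uninduced library (right). Filled points have an adjusted p under 0.05. At left CPA3 (-3.43), OLMALINC, TMC8 and A2M are filled; at right none is, and CPA3 has an SE of 1.57.

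The uninduced library was set against the others to compare levels with and without doxycycline. It is of the P95H line, while the doxycycline libraries include WT, the group in which the members were chosen to be lower. That choice lowers the members' values in this comparison, so for them genotype and doxycycline cannot be told apart in it. No member differed past the threshold between the 4 doxycycline libraries, averaged over both genotypes, and the uninduced library; edgeR called 0% of 22350 genes in this comparison, though 1138 (5.09%) had a p under 0.05 before adjustment; 14 genes passed by DESeq2. LMO3 stood at -1.0 (SE 0.38, unadjusted p 0.0383, edgeR adjusted p 0.855), that is, lower in the doxycycline libraries, and CPA3 at 1.48 (SE 1.57, edgeR adjusted p 0.894). TMC8 stood at -0.53 (SE 0.57), MAGEC1 at -0.39 (SE 0.32), A2M at -0.34 (SE 0.48) and OLMALINC at -0.34 (SE 0.62), each with an edgeR adjusted p from 0.873 to 0.935. With SEs of this size, a missed threshold does not show that levels were alike. The labels give the uninduced library no replicate number, and with a replicate block the calls depended on where it was placed. Placed with replicate 2, 1123 genes and 4 members were called, with TMC8 at -1.16, A2M at -0.93, OLMALINC at -1.02 and CPA3 at -1.08, the opposite direction (edgeR adjusted p 0.0174). Placed with replicate 1, 3934 genes and 2 members were called, LMO3 at -1.29 and CPA3 at 2.35. Without a block CPA3 stood at 0.33 without P95H replicate 1 and 0.00 without WT replicate 1.

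For each of the 6 genes the uninduced P95H library lay between both P95H doxycycline libraries, an order found in 30.8% of 21922 genes. It lay above both WT libraries for LMO3, TMC8, MAGEC1 and A2M, 4 of 6, an order found in 35.4% of genes. In log2 units it was 1.63 above the WT mean for LMO3, 1.21 for TMC8, 0.95 for OLMALINC, 0.86 for MAGEC1 and 0.85 for A2M, and stood at -0.07 for CPA3. Its distance from the P95H mean was 0.07 for TMC8, 0.06 for OLMALINC, -0.01 for A2M and -0.08 for MAGEC1, but 0.40 for LMO3 and -1.14 for CPA3. These distances use the libraries that chose the genes and are given without a test. Counting error alone gives the uninduced values exact binomial 95% intervals of 3.53 to 4.86 CPM for LMO3, 2.34 to 3.45 for TMC8, 2.72 to 3.91 for MAGEC1, 1.43 to 2.33 for CPA3, 4.54 to 6.04 for A2M and 7.67 to 9.57 for OLMALINC; PCR duplicates are not accounted for in them.

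Among the members, the closest pairs over libraries lay within TMC8, OLMALINC, A2M and MAGEC1. All members were chosen for the same order of P95H and WT, which builds in part of any likeness. Measured as the root mean square distance between log2 CPM centred on the mean of the 5 libraries, TMC8 and OLMALINC were closest (0.20), followed by MAGEC1 and A2M (0.26) and by TMC8 and A2M (0.27). A2M and OLMALINC were 0.37 apart, TMC8 and MAGEC1 0.42, and MAGEC1 and OLMALINC 0.53. LMO3 was 0.54 to 0.81 from these 4 genes, so that MAGEC1 was about as near to LMO3 (0.54) as to OLMALINC. CPA3 was 1.10 to 1.86 from every other member, and its range over libraries was the widest of the 6.

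The nearest genes in the genome and in the family show which of these patterns were shared. Of 74 annotated genes within 200 kb of a member, 44 passed the filter over 5 libraries and 43 that over 4. Of these 43, 18 were higher in P95H at both numbers, where 26.9% of genes were, and 0 were called in the fit with a replicate term, against 0.382% of all genes in either direction. In replicate 2 against replicate 1, 11 of the neighbours were called, 6 of them near A2M, against 19.2% of all genes.

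OLMALINC lies 8781 bases downstream of SCD, the stearoyl-CoA desaturase gene, on the same strand. SCD stood at 900.3 and 647.7 CPM in P95H, at 968.1 and 390.6 CPM in WT and at 1194 CPM in the uninduced library. The lowest of the 5 was WT replicate 2, as for every member and not OLMALINC alone. As for OLMALINC, the difference between P95H and WT was larger in the second pair (log2 -0.10 at replicate 1 and 0.73 at replicate 2). SCD fell in replicate 2 against replicate 1 (log2 difference -0.89, edgeR adjusted p 2.60e-08). Of 27 tested sterol and fatty acid synthesis genes, 18 fell and 4 rose in that comparison (median log2 -0.43), where 8.87% of all genes were called lower and 10.3% higher. Those that fell included INSIG1, the sterol-regulated ER anchor, at -1.31, LSS, lanosterol synthase, at -0.84 and HMGCS1, HMG-CoA synthase, at -0.77. Between P95H and WT 22 of the 27 had a positive value in the fit with a replicate term (median 0.08), as did 50.9% of all genes, and none passed. SREBF1, which encodes the transcription factor of fatty acid synthesis genes, stood at 91.6 and 91.6 CPM in P95H, at 104.5 and 43.9 CPM in WT and at 181.6 CPM in the uninduced library, again lowest in WT replicate 2.

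A2M lies 32611 bases from PZP, the gene of the related pregnancy zone protein. PZP stood at 4.12 and 1.96 CPM in P95H, at 2.40 and 0.843 CPM in WT and at 2.08 CPM in the uninduced library. Its log2 differences between P95H and WT were 0.76 at replicate 1 and 1.17 at replicate 2, so that its larger difference was in the second pair and that of A2M (0.94 and 0.78) in the first. PZP fell in replicate 2 against replicate 1 (-1.25, edgeR adjusted p 0.000144). KLRG1, a lectin-like receptor gene of natural killer and T cells 56904 bases from A2M, fell too (-0.74, edgeR adjusted p 0.000118). Of the 11 genes of the family and its receptor, all tested, 2 rose (CPAMD8 at 0.65 and the receptor chaperone LRPAP1 at 0.47) and 2 fell (A2M and PZP) between numbers. Of all genes, 10.3% were called higher and 8.87% lower there. Between P95H and WT in the fit with a replicate term A2M was called, as the choice of genes required, and no other listed gene was. The list had a median of 0.05 in that fit. CD109, a membrane-anchored relative, stood at -0.22 there (edgeR adjusted p 0.274), and the receptor gene LRP1 was at 1.60 and 1.67 CPM in P95H and 1.72 and 1.41 CPM in WT.

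TMC8 shares 1638 bases of its span with TMC6 (EVER1), its partner gene on the opposite strand. TMC6 stood at 34.5 and 36.7 CPM in P95H, at 34.4 and 20.9 CPM in WT and at 54.6 CPM in the uninduced library. Its difference between P95H and WT was 0.00 at replicate 1 and 0.81 at replicate 2 (0.41 in the fit with a replicate term, edgeR adjusted p 0.123). Like every member, it was lowest in WT replicate 2. The members were chosen to be lower in WT, and the share of all genes with that order was not counted. CIB1, the third part of that complex, stood at 29.4 and 28.8 CPM in P95H and at 34.8 and 29.1 CPM in WT. Of the 5 tested genes of that list TMC8 alone was called between numbers, where 19.2% of all genes were. In the fit between P95H and WT with a replicate term TMC8 was called, as the choice of genes required, and no other was.

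CPA3 is 1 of 22 listed genes of mast cells and basophils, of which 17 were tested. Their summed level was 1686 and 1771 CPM in P95H, 1448 and 1785 CPM in WT and 1888 CPM in the uninduced library. FCER1A, the alpha chain of the high-affinity IgE receptor, stood at 218.4 and 119.7 CPM in P95H, at 168.2 and 100.9 CPM in WT and at 143.0 CPM in the uninduced library. Like CPA3 it was higher in P95H in both pairs (log2 0.38 and 0.25), and was called in the fit with a replicate term (0.32, SE 0.08, edgeR adjusted p 0.0399). CPA3 was called there because the choice of genes required it. FCER1A was the only other gene called of the 17, whose median was 0.07, where 0.186% of all genes were called higher. In replicate 2 against replicate 1, 4 of the 17 fell and 4 rose, where 8.87% of all genes were called lower and 10.3% higher. Those that fell were CPA3, SIGLEC6 (-1.63), CTSG, the granule protease cathepsin G (-1.40), and FCER1A (-0.80). Those that rose were LTC4S, leukotriene C4 synthase (2.01), HDC, which makes histamine (0.59), SLC18A2, the vesicular monoamine transporter (0.28), and KIT, the stem cell factor receptor (0.49). LTC4S rests on 1 and 15 counts in P95H and 7 and 16 in WT (replicates 1 and 2), and KIT differed between numbers by -0.09 in P95H and 1.06 in WT. The tryptase gene TPSAB1 stayed low throughout, at 1.63 and 1.26 CPM in P95H, 1.30 and 1.44 CPM in WT and 2.00 CPM in the uninduced library, and the mast cell receptor gene MRGPRX2 had 0 counts in all 5 libraries. Of 6 tested metallocarboxypeptidases CPA3 fell and CPD, a carboxypeptidase of the trans-Golgi network, rose (0.41) between numbers, where 19.2% of all genes were called.

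**Figure D4:**
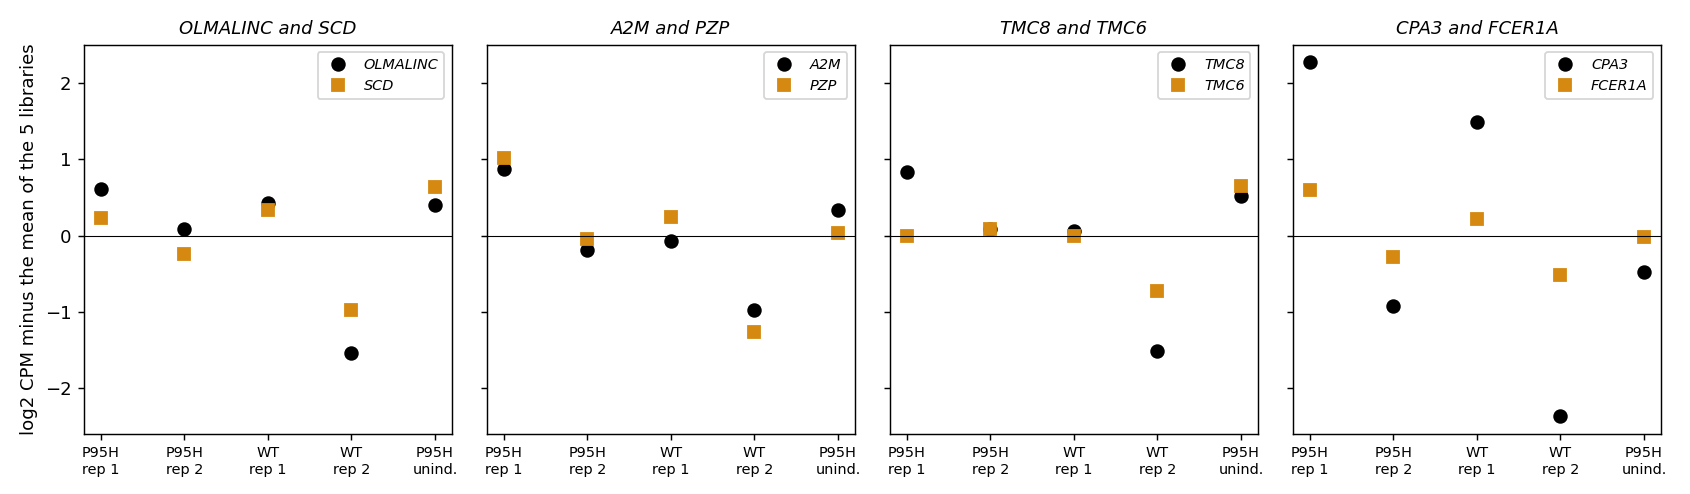
Points give log2 CPM minus the gene's own mean over the 5 RNA-seq libraries, for a member (black circles) and a neighbour or list gene (orange squares): OLMALINC with SCD, A2M with PZP, TMC8 with TMC6 and CPA3 with FCER1A. The 4 companions were picked after their values were seen. In every panel both genes are lowest in WT replicate 2, as every member is, and CPA3 spans a far wider range than FCER1A.

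LMO3 and MAGEC1 were set beside their own families. LMO2 stood at 82.3 and 79.3 CPM in P95H and at 74.6 and 83.3 CPM in WT, and LMO4 at 69.2 and 76.6 CPM in P95H and at 69.9 and 80.5 CPM in WT, so that neither was higher in P95H than in WT at both numbers. LDB1 and its partner SSBP3 rose in replicate 2 against replicate 1 (0.45 and 0.49), 2 of 12 tested genes of that complex. No gene of it fell past the threshold there, and 19.2% of all genes were called in either direction. Between P95H and WT in the fit with a replicate term LMO3 was called, as the choice of genes required, and no other was (median -0.02). MAGEC2, the close relative of MAGEC1, stood at 1.07 and 0.721 CPM in P95H and at 0.573 and 0.595 CPM in WT, and at 0.639 CPM in the uninduced library. Like MAGEC1 it was higher in P95H in both pairs (log2 0.84 and 0.26) and above both WT libraries in all 3 libraries of the P95H line, though its log2 value of 0.61 did not pass the fit with a replicate term (edgeR adjusted p 0.690). MAGEA1 (130.1 and 126.1 CPM in P95H, 139.1 and 140.9 CPM in WT) and MAGEA3 (123.7 and 122.9 CPM in P95H, 134.2 and 136.9 CPM in WT) stood slightly lower in P95H, without passing. Of 13 tested MAGE genes 3 had positive values in that fit, as did 50.9% of all genes. MAGEC1 was called in it, as the choice of genes required, and no other MAGE gene was. None was called between numbers, where 19.2% of all genes were. MAGE genes are similar in sequence, and the sources used here do not say how reads shared between copies were counted.

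By the same distance over 5 libraries, the genes nearest to LMO3 were RP11-574O16.1 (0.26), DNM3OS (0.30) and RP11-80I3.1 (0.32), among 12861 genes whose log2 CPM averaged 1 or more. DNM3OS, a noncoding RNA that hosts miRNAs, stood at 2.72 and 4.76 CPM in P95H, at 1.99 and 2.36 CPM in WT and at 4.32 CPM in the uninduced library. PZP (0.27), KIAA0125 (0.28) and SCART1 (0.29) were nearest to TMC8, and KIAA0125 (0.26), SH2D3C (0.27) and HSH2D (0.28) to OLMALINC. KIAA0125, a noncoding transcript of the immunoglobulin heavy chain locus, was thus near to both, at 66.0 and 44.6 CPM in P95H, 55.8 and 23.5 CPM in WT and 60.6 CPM in the uninduced library. MAGEC1 was nearest to CTA-280A3.2 (0.07), FAM196B (0.15) and RP11-461F11.2 (0.16), and A2M to RP11-231C14.4 (0.11), the chemokine receptor gene CXCR6 (0.14) and the neuropeptide gene ADCYAP1 (0.17). CPA3 had less close matches in CD300A, an inhibitory receptor gene of myeloid and mast cells (0.32), FAM83A (0.53) and PFKFB4, a regulator of glycolysis (0.78). CD300A stood at 18.9 and 2.37 CPM in P95H, at 17.5 and 1.36 CPM in WT and at 4.82 CPM in the uninduced library, so that it shared the wide gap between numbers with CPA3 but was nearly level between genotypes at replicate 1.

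Overlapping genes limit some of these values, since the sources used here do not say whether counting used strand; without it, reads of a gene and of its antisense partner cannot be told apart. LMO3 shares 97.85% of its span with MGST1, a glutathione transferase gene on the other strand with 4543 to 6419 counts a library, against 52 to 194 for LMO3. MGST1 had a log2 value of 0.10 between P95H and WT in the fit with a replicate term (edgeR adjusted p 0.818), against 1.29 for LMO3. TMC8 shares 13.43% of its span with TMC6, which had 844 to 2049 counts a library, against 28 to 139 for TMC8, so the likeness of their patterns carries the same limit. A2M shares 397 bases with A2M-AS1, which had 11 to 41 counts a library. An antisense transcript that covers the span of CPA3, RP11-680B3.2, had 0 to 5 counts a library.

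HITS-CLIP gave no direct binding data on these genes. None of the 8100 distinct windows in the authors' deposited table carries the name of a member or overlaps its span, where 9.83% of 21922 genes, and 5.91% of the 2655 genes whose mean level lies in the members' range, have at least 1 window. The table lists windows with an FDR of at most 0.05 and a log2 change of at least 1 in size, so a window bound alike by both proteins, or too thinly covered, would not be in it. The nearest windows were 11917 bases from OLMALINC, in SCD, and 4213 bases from TMC8, in TMC6. In the authors' deposited table the SCD window (chromosome 10, 100361678 to 100361698, plus strand) averaged 2.23 CPM in P95H and 0.89 CPM in WT (standard errors 1.82 and 0.60), a log2 change of 1.48 at an FDR of 0.0204. The TMC6 window (chromosome 17, 78126537 to 78126557, minus strand) of the authors' deposited table averaged 0.00 CPM in P95H and 1.84 CPM in WT (standard error of WT 1.55) at an FDR of 4.91e-11. For the other 4 members the nearest window was 40400 bases away or more.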

How the data were processed

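RNA-seq was made after rRNA depletion. The authors deposited a table of unnormalized counts, with a row for each Ensembl gene. The HITS-CLIP table holds log2 changes, FDR (adjusted p-values) and mean CPM with other columns for its standard error, for each window, computed and deposited by the authors, per the file headers. TopHat2 2.0.14, STAR 2.5.3a, edgeR and the build GRCh38.p3 are listed in the submitters' processing notes; the sources used here do not give their roles, the counting program, the use of strand or the total behind CPM.

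The members and gene lists were chosen with earlier results of these data known. Tests were run with edgeR 4.0.16 under R 4.3.3 (quasi-likelihood test, two-sided, Benjamini-Hochberg over all genes, threshold 0.05) and DESeq2 1.42.0. Genes were filtered by filterByExpr with the genotype as group, and libraries scaled by TMM over all 5 libraries for CPM of single genes. Summed levels of gene lists were not scaled by TMM. The log2 CPM had a prior count of 2. P95H against WT was fitted on genotype alone, replicate 2 against replicate 1 with genotype as a term, and the mean of both doxycycline groups against the uninduced library on all 5 libraries, where the lone library takes its spread from the replicated groups. SE is the size of the log2 difference over the root of edgeR's F. Fits were tested on simulated data. In these, edgeR recovered 43% of 2-fold and 3% of 1.5-fold changes between genotypes, and 96% and 67% between replicate numbers. Against the uninduced library it recovered 31% and 4%. Few or no calls between genotypes or against the uninduced library thus do not show that levels were alike. Among unchanged genes of the simulated data, edgeR falsely called 7 between genotypes, 8 between replicate numbers and 17 against the uninduced library. Recovery between genotypes in the fit with a replicate term was not simulated. Named genes were the members, the 3 nearest by distance, neighbours within 200 kb that passed the filter, and up to 4 list members past the threshold by size, or 2 by level where none passed; list members named beyond this, EGR1 and the genes set beside the members were picked after their values were seen. Sequences and motifs were read in Python 3.11.15 with pandas 2.3.3, with motifs chosen after the sequences were seen, and figures drawn with matplotlib 3.10.9.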

Additional observations from a re-analysis of the deposited data

Results flagged for a closer look

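LMO3 moved in opposite directions between replicate numbers in the genotypes: the log2 difference of replicate 2 from replicate 1 was 0.953 in P95H and -0.0355 in WT. The WT value is close to 0, rests on 52 and 60 counts, and the difference between genotypes was not tested.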

How the results depend on the processing

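Same-numbered P95H and WT libraries deviated from their group means together (correlation 0.536 across 21922 genes), but with 2 pairs and no label naming a shared day the numbers do not establish pairing. With the replicate block 84 genes were called between P95H and WT (41 higher, 43 lower), and without a filter on low counts 15, against 0. Leaving out 1 library always gave 0 calls, and member values went from -1.5 to 3.78 for CPA3 and from -0.061 to 1.91 for OLMALINC, turning below 0 without WT replicate 2 for both and without P95H replicate 1 for CPA3 (-1.50). Such fits mix replicate number with genotype.

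In replicate 2 against replicate 1, 4226 genes were called, 1459 by DESeq2, which called 2 members rather than 4, and 1897 to 3101 with 1 library left out, with 2 to 5 members called. LMO3 went from -0.45 (without P95H replicate 2) to 1.31 and MAGEC1 from -0.90 to 0.21 (without P95H replicate 1).

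Against the uninduced library the calls depend on its place among the numbers, which its labels do not give. Member values there also carry the choice of genes, since the doxycycline libraries include WT. With the replicate block, 1123 genes and 4 members were called when it was placed with replicate 2 (TMC8 -1.16, A2M -0.93, OLMALINC -1.02 and CPA3, which turned to -1.08), and 3934 genes and 2 members when placed with replicate 1 (LMO3 -1.29, CPA3 2.35), where A2M stood at 0.066 and OLMALINC at 0.13. DESeq2 called 14 genes, no filter 208 with 1 member (CPA3), and leaving out 1 library 0 to 3, with 3 without WT replicate 1; OLMALINC went from -0.99 to 0.0041 there (without WT replicate 2). No HITS-CLIP window fell in a member at an FDR of at most 0.01 either. Counts of 20 to 487 and 2 libraries a group limit the precision. The cause of these changes was not tested.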
